A study of Mus musculus with 10 samples.

Results

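The synaptic vesicle release machinery was described here through 48 listed mouse genes, in RNA-seq data from the medial habenula of mice in nicotine withdrawal. Of the 56691 genes in the deposited table, all 48 were found by symbol, and 47 had a mean of at least 0.5 FPKM (fragments scaled to gene length and to the library total) over the 10 libraries. The 47 were part of the 17426 genes that were tested. Complexin 3 (Cplx3) was the gene left out, with a mean of 0.422 FPKM. Just inside the limit lay Syn3 with 1.11 FPKM and Unc13b with 2.93 FPKM.

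Synaptic vesicles fuse when vesicle SNARE proteins (Vamp) zip up with SNAREs of the plasma membrane (syntaxin and SNAP-25) while a synaptotagmin senses calcium. Munc13 and RIM proteins dock and prime the vesicles at the active zone, complexins clamp and assist fusion, Rab3 and synapsins govern the vesicle supply, and NSF with its SNAP adaptors takes spent SNARE complexes apart. Medial habenula neurons use this machinery to release glutamate, acetylcholine and peptides in the interpeduncular nucleus, where their output is known to shape the signs of nicotine withdrawal.

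All 10 mice were wild type, and each gave 1 library of medial habenula RNA. Withdrawal mice (6 libraries) had been injected with nicotine ditartrate at 4 mg/kg, intraperitoneally and 2 times a day, over 14 days, and were then switched to saline on day 15. Control mice (4 libraries) were given saline for 17 days, and collection fell on day 17 in both groups. One label names sorted cholinergic neurons and another names brain tissue, and no age, sex, litter or batch is given.

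Library totals ran from 15023448 to 22026333 counts. Control 2 and withdrawal 2 stood apart from the other 8 libraries: the summed level of 10 medial habenula markers was 33.6 CPM (counts scaled to the library total) in control 2 and 31.99 CPM in withdrawal 2, against 1229.6 to 1848 CPM elsewhere. None of the 10 markers was at 0, but Chat, which makes acetylcholine, had 3 counts in control 2 and 4 in withdrawal 2. The 5 oligodendrocyte markers summed to 5664 CPM or more in every library, so the RNA did not come from cholinergic neurons alone. Every comparison is therefore given over all 10 libraries and over the 8 without control 2 and withdrawal 2, a choice made with these values known. Unless stated otherwise, CPM values are listed for controls 1, 3 and 4 and then for withdrawal 1, 3, 4, 5 and 6.

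Over all 10 libraries, none of the 47 release genes passed an adjusted p of 0.05 (quasi-likelihood test of edgeR, Benjamini-Hochberg over all genes). The share of all tested genes that passed was 0.166%. Without adjustment, 9 of the 47 had a p under 0.05 (19.1%, beside 14.9% of all tested genes), 1 of them higher in withdrawal (Rims2) and 8 lower (Doc2b, Syt12, Stxbp5, Cplx2, Syn3, Unc13a, Bsn and Napa), and DESeq2 also called 0. The median log2 fold change of the 47 was 0.01, beside 0.02 over all tested genes. Their smallest adjusted p with edgeR was 0.264, for Stxbp5.

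Over the 8 libraries, 14 of the 47 release genes passed (29.8%), beside 12.1% of all tested genes by the same edgeR test. Of these, 11 rose in withdrawal (23.4%, beside 5.38% of all tested genes): Syt4, Syt13, Vamp2, Syngr1, Syngr3, Sv2a, Rab3a, Rab3c, Syn2, Unc13c and Pclo. The 3 that fell (6.38%, beside 6.77% of all tested genes) were Syt12, Snap23 and Cplx2. The rises were between 1.18-fold (Sv2a) and 1.79-fold (Rab3c), while Cplx2 was 2.43-fold lower. The groups did not overlap for 19 of the 47 genes (40.4%, beside 21.9% of all tested genes), and 13 of the 19 were higher in withdrawal. In sign alone, 33 of the 47 were higher (70.2%, beside 51.9% of all tested genes), with a median log2 fold change of 0.16 beside 0.01. The release genes were more abundant than most, with a median level of 27.9 FPKM beside 4.94 FPKM for all tested genes. Among genes with a mean of at least 10 FPKM, 10 of 37 release genes passed (27.0%), beside 16.5% of 5170 genes, and 9 of the 37 rose (24.3%), beside 8.22%. The count of 14 became 7 without control 3, 6 without control 4, 9 without withdrawal 1, 9 without withdrawal 3 and 8 without withdrawal 5. Over all tested genes the count fell as well, from 2116 to 907, 1439, 1324, 1355 and 1151 in the same order. The full range with 1 library left out is given in the last section. In bulk tissue, fewer cells of a type and less RNA per cell cannot be told apart.

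**Figure D1:**
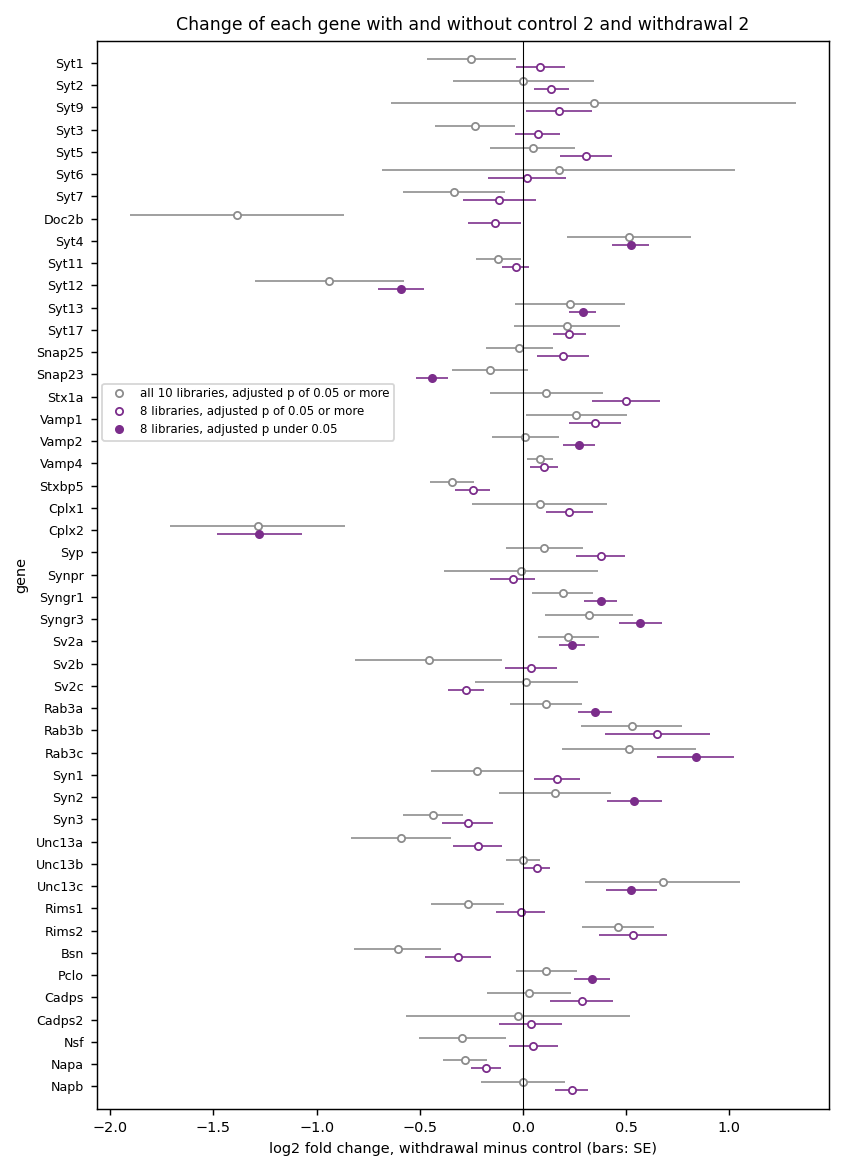
Log2 fold change (withdrawal minus control) of each of the 47 genes over 10 libraries and over 8 libraries, with the SE as bars; filled points passed an adjusted p of 0.05. No point of the 10-library comparison is filled, while 14 of the 8-library comparison are, 11 to the right of 0 and 3 to the left.

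Genes listed as markers of other cell types also differed between the groups of the 8-library comparison. Of the 56 markers of all lists, 12 passed (21.4%, beside 12.1% of all tested genes). Of 8 hippocampal and cortical markers, 4 fell (Neurod6, Neurod2, Prox1 and Emx1), and their sum was 543 to 1048 CPM in controls and 366 to 459.6 CPM in withdrawal. Of 5 oligodendrocyte markers, 4 fell, with sums of 10716 to 11934 CPM and 5664 to 9780.0 CPM. Of 5 astrocyte markers, 2 fell, with sums of 1694 to 1736 CPM and 1327 to 1519 CPM. Of 7 genes listed as thalamic markers, 2 rose (Tcf7l2 and Lef1), with sums of 292 to 482 CPM and 490.3 to 915 CPM. Tcf7l2 was the largest part of each of these sums, at 134 to 246 CPM in controls and 348 to 458 CPM in withdrawal. The 5 markers that did not pass overlapped between the groups. In control 2 and withdrawal 2, Tcf7l2 lay 42.3-fold and 22.6-fold below the median of the 8 libraries. The other thalamic markers lay at most 9.18-fold below theirs, and Prkcd in withdrawal 2 lay above. Tcf7l2 was thus low in both libraries that were low in habenula markers. Which cells held Tcf7l2, and whether thalamic tissue differed between the groups, was not tested. None of the 10 habenula markers passed the test, and no marker in these 4 lists was at 0 in any library. The part of these tissue markers in the changes of the release genes was not tested.

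Promoter windows are shown for 4 genes, those with the largest fall (Cplx2), its abundant paralogue (Cplx1), the largest rise (Rab3c) and the widest spread between libraries (Syt9). Each holds the 250 bases upstream of the start site, 5′ to 3′ on the gene's strand, from RefSeq on GRCm38.p6, another build than the mm39 of the counts. Capitals mark a GC box (GGGCGG) or a CCAAT box (CCAAT) on either strand. The positions are chr13:54302306-54302555 on the plus strand for Cplx2, chr5:108550028-108550277 on the minus strand for Cplx1, chr13:110280207-110280456 on the minus strand for Rab3c and chr7:107370540-107370789 on the plus strand for Syt9.
Cplx2: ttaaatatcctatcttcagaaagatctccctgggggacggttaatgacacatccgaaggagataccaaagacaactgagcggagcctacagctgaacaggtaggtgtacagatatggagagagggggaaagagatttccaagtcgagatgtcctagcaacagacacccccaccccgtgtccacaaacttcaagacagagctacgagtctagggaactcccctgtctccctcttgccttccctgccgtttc
Cplx1: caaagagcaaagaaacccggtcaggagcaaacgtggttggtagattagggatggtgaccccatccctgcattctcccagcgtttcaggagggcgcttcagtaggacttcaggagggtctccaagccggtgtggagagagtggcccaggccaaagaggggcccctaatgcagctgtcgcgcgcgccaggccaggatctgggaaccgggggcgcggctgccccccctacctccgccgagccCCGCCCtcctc
Rab3c: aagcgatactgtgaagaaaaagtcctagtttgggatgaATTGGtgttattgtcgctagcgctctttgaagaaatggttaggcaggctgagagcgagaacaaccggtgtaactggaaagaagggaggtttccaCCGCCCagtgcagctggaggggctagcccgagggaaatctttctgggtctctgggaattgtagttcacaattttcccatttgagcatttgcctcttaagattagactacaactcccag
Syt9: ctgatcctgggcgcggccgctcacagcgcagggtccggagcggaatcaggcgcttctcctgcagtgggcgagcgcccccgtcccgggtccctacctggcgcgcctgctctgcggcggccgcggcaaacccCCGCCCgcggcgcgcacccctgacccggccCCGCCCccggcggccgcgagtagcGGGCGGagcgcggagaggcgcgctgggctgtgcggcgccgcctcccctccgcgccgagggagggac
The Cplx2 window held neither motif, the Cplx1 window 1 GC box, the Rab3c window 1 of each and the Syt9 window 3 GC boxes, with GC contents of 50.8%, 64.8%, 47.6% and 80.4%. Promoter windows were found for 35 of the 47 genes (46 windows in all), and GC boxes lay in 29 of these windows (63.0%), beside 32.7% of 32851 windows of all genes. Their median GC content was 61.2%, beside 52.4%. A CCAAT box lay in 12 of the 46 (26.1%, beside 33.8%), an E-box (CACGTG) in 8 (17.4%, beside 6.02%), a TATA box (TATAAA) in 3 (6.52%, beside 12.4%) and a cyclic AMP response element (TGACGTCA) in 1, that of Syn1 (2.17%, beside 1.55%). All were searched on both strands, and no motif contains another. A match describes letters only.

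Compared per length, Cplx1 had the highest mean level of the 47 genes, 193 FPKM over the 10 libraries, with a range of 58.1 to 258 FPKM. Next came the vesicle SNARE Vamp2 at 181 FPKM (143 to 217), the membrane SNARE Snap25 at 167 FPKM (135 to 196), the vesicle GTPase Rab3a at 141 FPKM (92.9 to 178) and synaptophysin (Syp) at 135 FPKM (102 to 169). Neighbours in this order were not separated, since their ranges over the libraries overlapped. At the other end lay Syn3 at 1.11 FPKM, Unc13b at 2.93 FPKM, Syt12 at 3.26 FPKM, Syt2 at 4.44 FPKM and Unc13c at 4.62 FPKM. Cplx3, a complexin best known from the retina, ran from 0.02 FPKM (1 count, withdrawal 2) to 1.8 FPKM (103 counts, withdrawal 3).

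**Figure D2:**
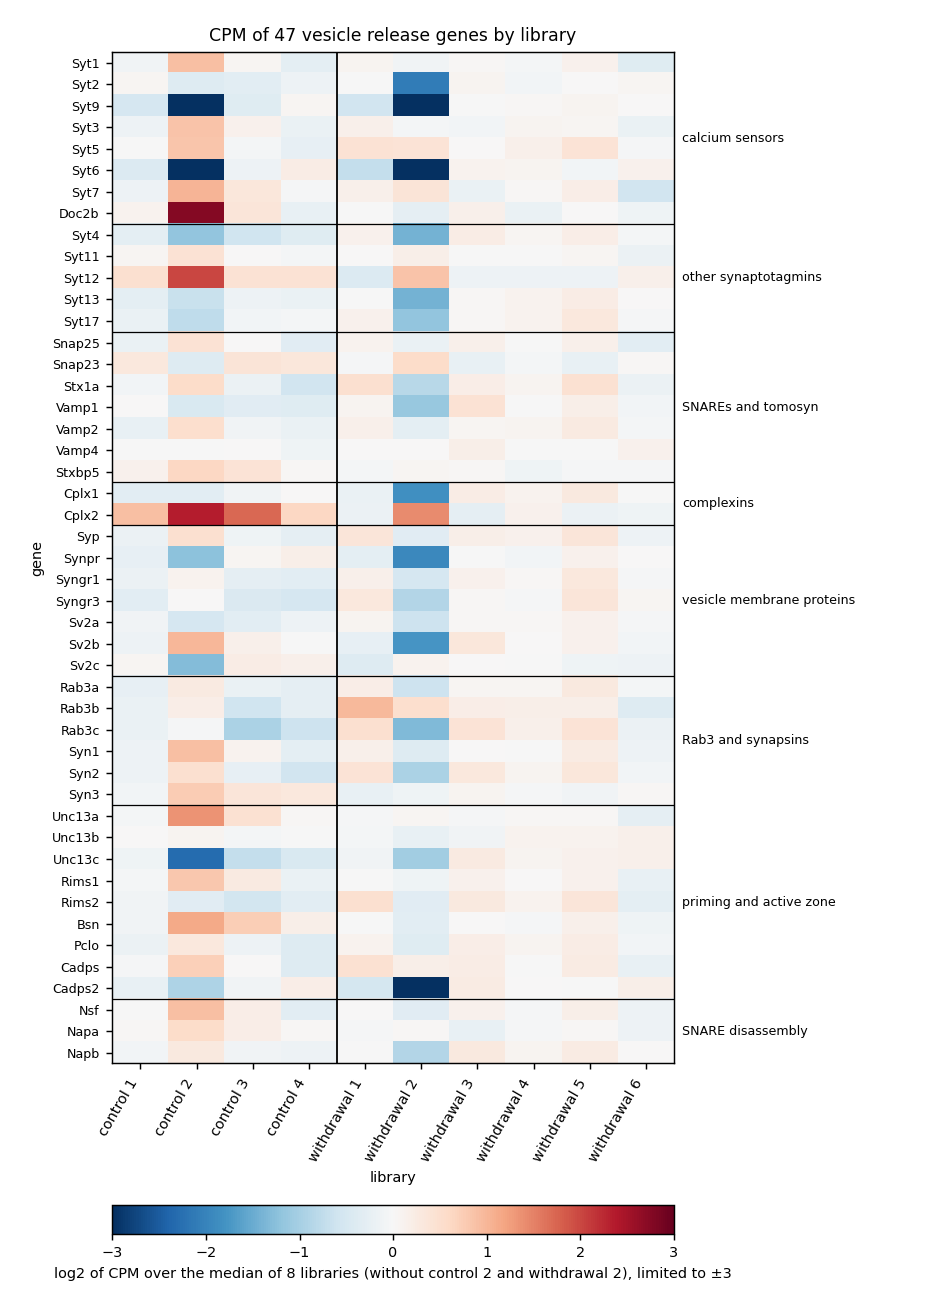
CPM of the 47 genes (rows) in the 10 libraries (columns), as log2 of the ratio to the median of the 8 libraries without control 2 and withdrawal 2, limited to ±3. Control 2 and withdrawal 2 stand out as columns, with Syt9 and Syt6 far below the median in both.

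The calcium sensors set the 2 libraries apart most clearly. Syt9, a fast calcium sensor, stood at 299.9, 332 and 446 CPM in controls and at 286, 422, 436, 456 and 433 CPM in withdrawal. In control 2 it had 2.94 CPM (55 counts) and in withdrawal 2 22.6 CPM, 146-fold and 18.9-fold below the median of the other 8. Syt6, a synaptotagmin of uncertain sensor role, followed the same order, with 8.02 and 11.7 CPM in these libraries against 141 to 271 CPM in the 8. Syt1, the main fast sensor of the forebrain, was not low in these libraries. Its level was 1771 CPM in control 2 and 883 CPM in withdrawal 2, beside 736 to 1041 CPM in the 8. Doc2b, a high-affinity sensor linked to spontaneous release, reached 349 CPM in control 2, 6.75-fold the median of the 8, and 42.8 CPM in withdrawal 2.

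None of the 8 calcium sensors passed the test between withdrawal and control with edgeR or DESeq2, in either set of libraries. Of all tested genes, 12.1% passed with edgeR over the 8 libraries. Of the 8 sensors, 1 had an unadjusted edgeR p under 0.05 over 10 libraries (Doc2b) and 1 over 8 (Syt5). Of all tested genes, 14.9% and 28.9% did. Over the 8 libraries the smallest adjusted p with edgeR was 0.139, for Syt5, at 62.7, 60.6 and 52.6 CPM in controls and 85.1, 62.9, 70.3, 82.98 and 61.2 CPM in withdrawal, a log2 fold change of 0.30 (SE 0.12). The lowest withdrawal value lay between controls 3 and 1, so the groups overlapped. For Syt2, the fast sensor of the hindbrain and of inhibitory neurons, the levels were 40.1, 30.96 and 34.8 CPM and 37.8, 40.9, 36.5, 38.997 and 39.9 CPM, which overlapped (log2 0.14, SE 0.08, edgeR adjusted p = 0.313). Syt9 had a log2 fold change of 0.18 (SE 0.16, edgeR adjusted p = 0.506), and withdrawal 1 was its lowest library. Doc2b gave -1.39 over 10 libraries (SE 0.52, edgeR adjusted p = 0.283) and -0.14 over 8 (adjusted p = 0.523). Control 2, which held the highest Doc2b value, is absent from the second. Syt1, Syt3, Syt6 and Syt7 had log2 fold changes between -0.12 (Syt7) and 0.08 (Syt1) over the 8 libraries, with adjusted p-values of 0.686 or more.

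Within the fast-sensor family, control 2 and withdrawal 2 differed from the other 8 libraries in their shares. Syt9 took 36.4% to 53.8% of the FPKM summed over Syt1, Syt2 and Syt9 in the 8 libraries, but 0.342% in control 2 and 5.03% in withdrawal 2. Syt1 took 97.9% and 93.9% there, and 43.6% to 61.1% in the 8. Syt1 and Syt9 thus had levels of the same order per length in the 8 libraries, whose habenula markers were high. Syt2 held 1.97% to 2.82%, with means of 2.32% ± 0.447 (SD, n = 3) in controls and 2.33% ± 0.221 (SD, n = 5) in withdrawal (exact 2-sided permutation p = 0.982).

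Of the 5 other synaptotagmins, which are not established sensors of fast release, 2 rose and 1 fell over the 8 libraries. That is 60% that passed, beside 12.1% of all tested genes. Syt4, a synaptotagmin of dense-core and postsynaptic vesicles, stood at 289, 231 and 276 CPM in controls and 386, 409, 367, 407 and 339 CPM in withdrawal. All 5 withdrawal libraries were above all 3 controls, and the means were 266 ± 30.3 CPM (SD, n = 3) and 381 ± 29.3 CPM (SD, n = 5). The log2 fold change was 0.52 (SE 0.09, edgeR adjusted p = 0.00761). Control 2 had 155 CPM and withdrawal 2 132 CPM, both below every other library. Over 10 libraries the log2 fold change was nearly the same, 0.51, but with an SE of 0.30 and an edgeR adjusted p of 0.424. Syt4 had an adjusted p of 0.0478 when withdrawal 2 alone was left out.

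Syt13, a synaptotagmin with little known calcium binding, had 240.4, 263 and 258 CPM in controls and 293, 304, 317, 342 and 296 CPM in withdrawal, without overlap (log2 0.29, SE 0.07, edgeR adjusted p = 0.0215). Its adjusted p was 0.0637 without control 1 and 0.0555 without control 4. Syt12, a low-abundance synaptotagmin of synaptic vesicles, was at 18.1, 17.5 and 17.5 CPM in controls and 9.8004, 11.5, 11.5, 11.6 and 14.3 CPM in withdrawal, all withdrawal libraries below all controls. Its log2 fold change was -0.59 (SE 0.11, edgeR adjusted p = 0.0113), and control 2 held the highest value of all, 51.8 CPM. Syt17 did not overlap either, at 54.5, 58.9 and 60.1 CPM and 68.8, 64.3, 67.01, 77.4 and 60.8 CPM, but missed the threshold (edgeR adjusted p = 0.1005). Syt11, abundant and linked to membrane retrieval, ranged from 566 to 667 CPM with overlapping groups (edgeR adjusted p = 0.761).

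Of the 7 SNAREs and tomosyn, Vamp2 rose and Snap23 fell over the 8 libraries (28.6% passed, beside 12.1% of all tested genes). Snap23, the broadly expressed relative of Snap25 found in glia and at postsynaptic sites, stood at 36.1, 38.2 and 36.8 CPM in controls and 28.5, 24.9, 28.1, 25.2 and 29.9 CPM in withdrawal. The groups were well apart, with means of 37.03 ± 1.06 CPM (SD, n = 3) and 27.3 ± 2.16 CPM (SD, n = 5) and a log2 fold change of -0.44 (SE 0.08, edgeR adjusted p = 0.00782). Control 2 (22.5 CPM) and withdrawal 2 (42.6 CPM) ran the other way, and over 10 libraries the log2 fold change was -0.16 (edgeR adjusted p = 0.697). Snap23 fell beside the oligodendrocyte and astrocyte markers given above, and their part in it was not tested.

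Vamp2, the main vesicle SNARE of the brain, had 583, 626 and 591 CPM in controls and 745, 700.0, 712, 819.6 and 650.4 CPM in withdrawal, without overlap. Its log2 fold change of 0.27 (SE 0.08) gave an edgeR adjusted p of 0.0499, just inside the threshold. Leaving out any 1 of the 8 libraries other than withdrawal 6 put the adjusted p between 0.0741 (without control 3) and 0.134 (without control 4). Over 10 libraries its log2 fold change was 0.01 (edgeR adjusted p = 0.981), with control 2 at the highest value, 963 CPM.

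The partner SNAREs did not pass. Snap25 was at 995, 1159 and 901 CPM in controls and 1227, 1285, 1137, 1267 and 915 CPM in withdrawal, with overlap (log2 0.19, SE 0.12, edgeR adjusted p = 0.3398). Stx1a, the plasma membrane syntaxin, had 40.9, 38.4 and 29.3 CPM and 60.6, 50.2, 46.4, 59.5 and 38.5 CPM, a log2 fold change of 0.50 (SE 0.16, edgeR adjusted p = 0.0764). Withdrawal 6 was the lone withdrawal library within the range of the Stx1a controls, and without it the adjusted p was 0.0204. With each of the 8 libraries left out in turn, Stx1a passed only then, and its highest edgeR adjusted p was 0.225. Without withdrawal 6, 3007 of all tested genes passed, beside 2116 with it. Vamp1, the vesicle SNARE of fast-firing neurons, gave log2 0.35 (edgeR adjusted p = 0.09697), and the trans-Golgi SNARE Vamp4 log2 0.10 (edgeR adjusted p = 0.354). Tomosyn (Stxbp5), which competes with Vamp2 for the membrane SNAREs, stood at 131, 157 and 122 CPM in controls and 115, 122, 109, 116 and 116 CPM in withdrawal. The groups barely separated, with control 4 at 122.3 and withdrawal 3 at 122.1 CPM, and the log2 fold change was -0.24 (SE 0.08, edgeR adjusted p = 0.0841, and 0.0466 without control 4). Stxbp5 passed with no other library left out, and its highest edgeR adjusted p was then 0.237.

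Complexin 2 (Cplx2), which clamps and assists SNARE-driven fusion, gave the largest change of the 47 genes over the 8 libraries. It stood at 495, 876 and 409 CPM in controls and at 238, 222, 289.6, 235 and 244 CPM in withdrawal. The 3 controls differed widely among themselves, but each exceeded every withdrawal library, and the means were 594 ± 248 CPM (SD, n = 3) and 246 ± 25.8 CPM (SD, n = 5). The log2 fold change was -1.28 (SE 0.21, edgeR adjusted p = 0.00606) and passed without any 1 of the 8 libraries. Over 10 libraries it was -1.29 (SE 0.42, edgeR adjusted p = 0.267), with control 2 at 1367 CPM and withdrawal 2 at 708 CPM. The adjusted p over 9 libraries, without withdrawal 2 alone, was 0.0275.

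The level of Cplx2 was highest in the libraries that were also highest in hippocampal and cortical marker genes. In order, control 2, control 3, withdrawal 2, control 1 and control 4 had the 5 highest Cplx2 levels, and the same order held for Neurod6 (336, 56.5, 35.6, 15.9 and 3.22 CPM) and for Neurod2 (253, 129.6, 77.1, 47.01 and 42.7 CPM). These are transcription factors of hippocampal and cortical excitatory neurons. The 5 remaining libraries, all from withdrawal, had Neurod6 at 1.07 to 1.97 CPM and Neurod2 at 6.12 to 14.8 CPM. The part of such tissue in the Cplx2 difference was not tested.

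Complexin 1 (Cplx1), the complexin of many fast and subcortical synapses, did not pass. Its values were 367, 427 and 466 CPM in controls and 404, 537, 500.2, 561 and 456 CPM in withdrawal, with overlap (log2 0.22, SE 0.11, edgeR adjusted p = 0.221). Withdrawal 2 was lowest at 129 CPM, while control 2 (369 CPM) lay beside control 1. The share of the family did differ: Cplx1 took 62.5, 52.3 and 71.9% of complexin FPKM in controls 1, 3 and 4 and 79.2, 83.998, 79.5, 84.2 and 80.7% in the 5 withdrawal libraries. The groups did not overlap, and the exact 2-sided permutation test gave p = 0.0179, the smallest that 56 splits allow, and 0.0417 after adjustment over the 14 shares tested. It did not pass with any 1 of the 8 libraries left out, where fewer splits raise the smallest possible p. In control 2 and withdrawal 2 the share was 37.7% and 29.02%, and over all 10 libraries the exact permutation p was 0.219.

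**Figure D3:**
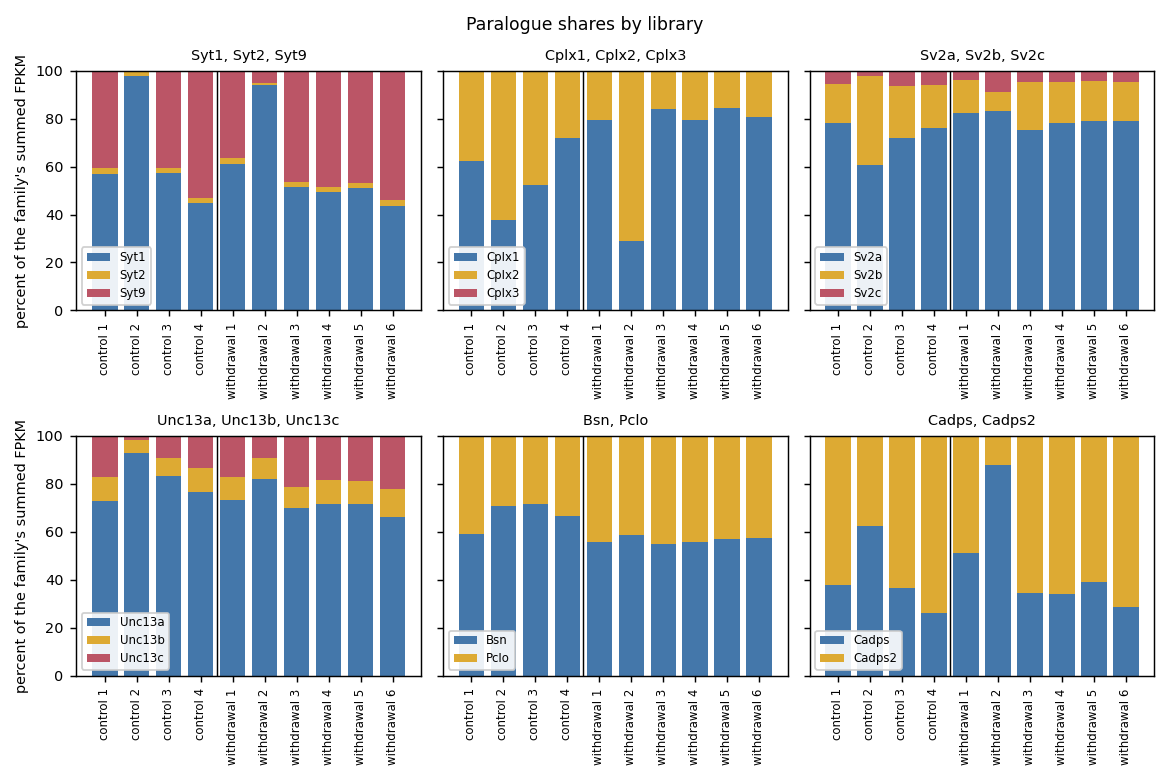
Percent of each family's summed FPKM taken by each paralogue, as stacked bars for the 10 libraries (controls left of the line). In control 2 and withdrawal 2 Syt1 takes nearly the whole of the fast-sensor bar, and Cplx1 takes 37.7% and 29.02% of the complexin bar.

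Of the 7 vesicle membrane proteins, 3 rose and none fell over the 8 libraries (42.9% passed, beside 12.1% of all tested genes). Syngr3, a synaptogyrin found with the dopamine and other amine transporters, was at 92.6, 86.2 and 81.8 CPM in controls and 143, 119, 113, 149.7 and 119.8 CPM in withdrawal. No withdrawal value came near the controls, and the log2 fold change was 0.57 (SE 0.10, edgeR adjusted p = 0.00983). Syngr1, its abundant relative, had 279, 265 and 255 CPM and 353, 347, 326, 394 and 309 CPM, again without overlap (log2 0.38, SE 0.08, edgeR adjusted p = 0.0182). The adjusted p of Syngr1 was 0.0505 without control 3 and 0.0627 without control 4.

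Sv2a, the vesicle glycoprotein bound by levetiracetam, stood at 542, 469 and 524 CPM in controls and 616, 602, 595, 637 and 571 CPM in withdrawal. All withdrawal values were higher, by a small log2 fold change of 0.24 (SE 0.06, edgeR adjusted p = 0.0381). The adjusted p of Sv2a was 0.0628 to 0.124 when control 3, control 4 or withdrawal 1, 3, 4 or 5 was left out. Synaptophysin (Syp), a major vesicle membrane protein, did not pass: it had 601, 614 and 559 CPM and 874, 757, 737, 866 and 604 CPM (log2 0.38, SE 0.12, edgeR adjusted p = 0.0636). Withdrawal 6 lay between controls 1 and 3, and without it the Syp adjusted p was 0.00726. With each of the 8 libraries left out in turn, Syp passed only then, and its highest edgeR adjusted p was 0.177. Sv2c, the isoform of basal ganglia and evolutionarily older regions, had 80.5, 90.2 and 86.5 CPM in controls and 59.04, 78.5, 76.2, 70.7 and 70.1 CPM in withdrawal (log2 -0.28, SE 0.09, edgeR adjusted p = 0.06899). These Sv2c groups did not overlap. Synpr and Sv2b had log2 fold changes of -0.05 and 0.04, with edgeR adjusted p-values of 0.804 and 0.865.

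Over all 10 libraries none of the 7 vesicle membrane genes had even an unadjusted edgeR p under 0.05, beside 14.9% of all tested genes. Syngr3 gave a log2 fold change of 0.32 (edgeR adjusted p = 0.483), where withdrawal 2 had 63.3 CPM and control 2 117 CPM. Sv2a gave 0.22 (edgeR adjusted p = 0.4800), where withdrawal 2 had 379.9 CPM and control 2 411 CPM.

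Of the 6 Rab3 and synapsin genes, 3 rose and none fell over the 8 libraries (50% passed, beside 12.1% of all tested genes). Rab3c, a vesicle GTPase of the Rab3 family, had the largest rise of the 47 genes, from 479, 282 and 357 CPM in controls to 767, 733, 609, 729 and 489 CPM in withdrawal. The groups were apart, although control 1 (478.8 CPM) lay close to withdrawal 6 (488.8 CPM). Means were 373 ± 99.2 CPM (SD, n = 3) and 666 ± 115 CPM (SD, n = 5), a log2 fold change of 0.84 (SE 0.19, edgeR adjusted p = 0.0204). The adjusted p was 0.0712 without control 3, 0.0642 without control 4 and 0.0501 without withdrawal 5. Control 2 had 539.7 CPM of Rab3c and withdrawal 2 had 221 CPM.

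Rab3a, the main vesicle-bound Rab, stood at 272, 278 and 267 CPM in controls and 371, 332, 333, 394 and 309.7 CPM in withdrawal, without overlap (log2 0.35, SE 0.08, edgeR adjusted p = 0.0245). Its adjusted p was 0.0512 to 0.0754 without control 1, 3 or 4 or withdrawal 1. Rab3b, linked to dopamine terminals and pituitary cells, had 28.98, 21.96 and 27.5 CPM and 65.7, 38.4, 37.9, 37.7 and 25.6 CPM and did not pass (log2 0.65, SE 0.26, edgeR adjusted p = 0.124). Withdrawal 1 was far above the rest of the Rab3b values and withdrawal 6 lay among the controls.

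Syn2, a synapsin that tethers reserve vesicles, had 292, 275 and 218 CPM in controls and 431, 408, 343, 415 and 308 CPM in withdrawal, without overlap (log2 0.54, SE 0.13, edgeR adjusted p = 0.0305). Its adjusted p was 0.0617 to 0.0947 without control 3, control 4 or withdrawal 1, 3 or 5. Syn1, the most abundant synapsin per length, was at 239, 287 and 219 CPM and 299, 268, 267, 316 and 242 CPM, which overlapped (log2 0.16, SE 0.11, edgeR adjusted p = 0.361). Syn3, an early developmental synapsin, gave log2 -0.27 (edgeR adjusted p = 0.1797) at 10.8 to 16.3 CPM.

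Of the 9 priming and active zone genes, 2 rose and none fell over the 8 libraries (22.2% passed, beside 12.1% of all tested genes). Unc13c (Munc13-3), a priming factor best known from the cerebellum, was at 44.1, 29.1 and 35.1 CPM in controls and 44.7, 57.8, 50.9, 52.4 and 53.5 CPM in withdrawal. Control 1 (44.1 CPM) lay just under withdrawal 1 (44.7 CPM), so the groups barely separated, with a log2 fold change of 0.52 (SE 0.12, edgeR adjusted p = 0.02600). The adjusted p of Unc13c was 0.101 without control 3, 0.07803 without control 4, 0.0519 without withdrawal 3 and 0.0584 without withdrawal 5. Unc13c was also low in the 2 libraries poor in habenula transcripts, with 23.2 CPM in withdrawal 2 and 9.72 CPM in control 2.

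Unc13a (Munc13-1), the main priming factor of forebrain synapses, did not pass: its values were 271, 384 and 288 CPM in controls and 273, 273, 287, 289 and 231 CPM in withdrawal (log2 -0.22, SE 0.12, edgeR adjusted p = 0.253). Control 2 held 710.3 CPM of Unc13a, 2.54-fold the median of the 8. Unc13b ranged from 62.4 to 74.6 CPM, and its groups overlapped (edgeR adjusted p = 0.551).

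Pclo (piccolo), a giant scaffold of the active zone, had 196, 201 and 171 CPM in controls and 238, 254, 236, 258 and 209 CPM in withdrawal, without overlap (log2 0.33, SE 0.09, edgeR adjusted p = 0.0346). The adjusted p of Pclo was 0.0558 to 0.111 without control 1 or 4 or withdrawal 1, 3, 4 or 5. Its partner scaffold Bsn (bassoon) was at 201, 363 and 244 CPM and 213, 219, 213, 241 and 199 CPM, with overlap and a log2 fold change of -0.32 (SE 0.16, edgeR adjusted p = 0.225). Control 3 and control 4 held the highest Bsn values of the 8 libraries. Rims2, a RIM scaffold that binds Rab3 and calcium channels, stood at 91.5, 67.2 and 79.1 CPM in controls and 138, 120.4, 106, 128 and 81.2 CPM in withdrawal. Withdrawal 6 fell within the range of the Rims2 controls, and the log2 fold change was 0.53 (SE 0.16, edgeR adjusted p = 0.0626, and 0.00924 without withdrawal 6). Rims2 passed with no other library left out, and its highest edgeR adjusted p was then 0.209. Rims1, Cadps and Cadps2 had log2 fold changes of -0.01, 0.28 and 0.04, with edgeR adjusted p-values of 0.256 or more. Cadps2, a priming factor of dense-core vesicles, was at 19.8 CPM in withdrawal 2 and 124 CPM in control 2, beside 164 to 278 CPM in the 8.

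**Figure D4:**
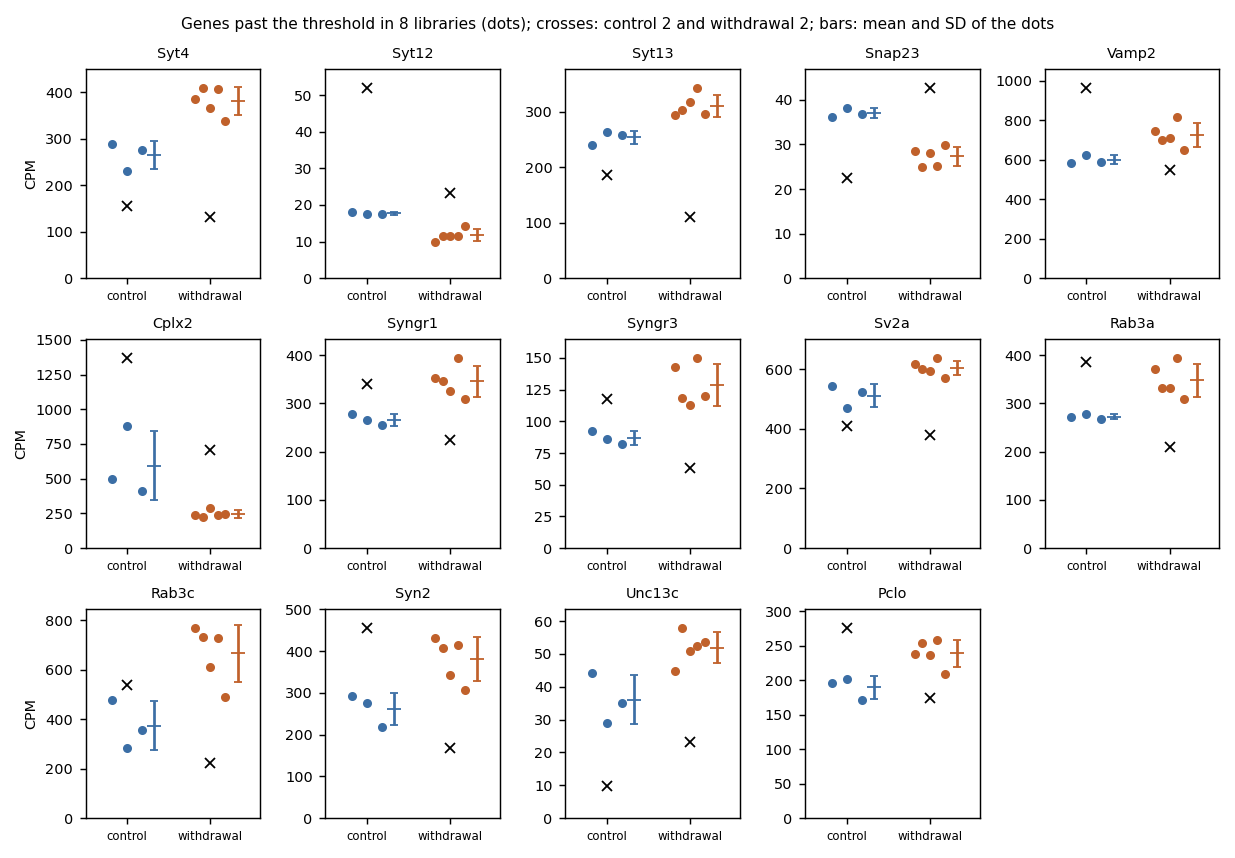
CPM of the 14 genes that passed an adjusted p of 0.05 over the 8 libraries; dots are libraries, bars the mean and SD of the dots, and crosses control 2 and withdrawal 2, which were not in that comparison. In all 14 panels the dots of the groups do not overlap, and for Vamp2 the cross of control 2 (963 CPM) lies above every dot.

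None of the 3 genes that take SNARE complexes apart passed with edgeR over the 8 libraries, 2 had an unadjusted p under 0.05 (Napb and Napa), and DESeq2 called 1 (Napb). Of all tested genes, 12.1% passed with edgeR, 28.9% had an unadjusted edgeR p under 0.05 and 17.3% passed with DESeq2. Nsf, the ATPase that pulls them apart, was at 621, 727 and 505 CPM in controls and 635, 682, 615, 705 and 567 CPM in withdrawal, which overlapped (log2 0.05, SE 0.12, edgeR adjusted p = 0.814). Its 2 adaptors gave changes of opposite sign: Napb (beta-SNAP, the brain form) log2 0.24 (SE 0.08, edgeR adjusted p = 0.0778) and Napa (alpha-SNAP) log2 -0.18 (SE 0.07, edgeR adjusted p = 0.135). Napb had 436, 431 and 419 CPM and 462, 563, 492, 546 and 464 CPM, and all 5 withdrawal values were above all 3 controls. Napa had 149, 166 and 148 CPM and 142, 123, 140.3, 147 and 131 CPM, with all withdrawal values below the controls.

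The balance between paralogues was compared in 14 families by the exact permutation test. Over the 8 libraries 6 shares passed after adjustment over the 14. Each had an exact permutation p of 0.0179 (the smallest that 56 splits allow) and 0.0417 adjusted. None passed with any 1 library left out, where fewer splits raise the smallest possible p. Passing was then hardly possible, so leaving out a library cannot show whether these shares hold. Cplx1 is given above. Unc13c took 17.04, 9.05 and 13.4% of Unc13 FPKM in controls and 17.2, 21.3, 18.3, 18.6 and 21.995% in withdrawal. Pclo took 40.8, 28.2 and 33.2% of the sum with Bsn in controls and 44.2, 45.1, 44.1, 43.1 and 42.6% in withdrawal. In these first 3 families the controls spread widely, and the highest control lay close to the lowest withdrawal library for Unc13c and Pclo.

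Syn2 took 36.2, 30.8 and 31.5% of synapsin FPKM in controls and 40.1, 41.4, 37.3, 37.9 and 37.05% in withdrawal. Napb took 61.1, 58.2 and 60.3% of the sum with Napa in controls and 63.6, 71.02, 65.3, 66.5 and 65.6% in withdrawal. Sv2c took 5.54, 6.599 and 5.999% of Sv2 FPKM in controls and 3.76, 4.697, 4.796, 4.19 and 4.63% in withdrawal. The first 2 of these shares were higher in withdrawal and Sv2c lower, without overlap.

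Snap23, Syngr1 and Rims2 had an exact permutation p of 0.0357 each and 0.0556 adjusted. Snap23 held 5.48% ± 0.555 (SD, n = 3) of the SNAP-25 pair in controls and 3.65% ± 0.778 (SD, n = 5) in withdrawal. Over all 10 libraries 0 of the 14 shares passed after adjustment, and 2 had an unadjusted exact permutation p under 0.05. These were, by exact permutation, Pclo (p = 0.00476, the smallest that 210 splits allow, 0.0667 adjusted) and Rims2 (p = 0.0286, 0.200 adjusted). When the difference of medians was used in place of means, no share passed over the 8 libraries.

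Control 2 and withdrawal 2 also differed from each other in the release genes. Beside the median of the 8 libraries, 16 of the 47 genes were over 1.5-fold higher and 9 over 1.5-fold lower in control 2, against 2 and 19 in withdrawal 2. In control 2 the highest ratios were those of Doc2b (6.75), Cplx2 (5.13), Syt12 (4.01) and Unc13a (2.54), and the lowest those of Syt9 (0.00687), Syt6 (0.0344), Unc13c (0.203) and Sv2c (0.406). In withdrawal 2 the highest were Cplx2 (2.65), Syt12 (1.797), Snap23 (1.46) and Rab3b (1.43), and the lowest Syt6 (0.0501), Syt9 (0.0528), Cadps2 (0.08401) and Syt2 (0.232). Both libraries were thus low in Syt6 and Syt9 and high in Cplx2 and Syt12. Sums of other markers beside these ratios were 2667 CPM (hippocampal and cortical) and 708 CPM (GABAergic) in control 2, and 667 and 1108 CPM in withdrawal 2. In the 8 libraries they were at most 1048 and 351 CPM.

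Other genes of the release and recycling pathway were read from a list of 74, of which 71 were matched by symbol and 68 tested. Over 10 libraries none passed with edgeR (0.166% of all tested genes did), 13 had an unadjusted p under 0.05 (19.1%, beside 14.9% of all tested genes), and DESeq2 called 1. Over the 8 libraries 19 passed (27.9%, beside 12.1% of all tested genes), 10 higher (14.7%, beside 5.38%) and 9 lower (13.2%, beside 6.77%). The count of 19 became 9 without control 3, 11 without control 4, 12 without withdrawal 5 and less than 19 without each other library except withdrawal 6. Over all tested genes, 2116 became 907 without control 3, 1439 without control 4 and 1151 without withdrawal 5. Among the SNAREs and their partners, Snap47 rose (log2 0.42, edgeR adjusted p = 0.0126), while the SNAREs of broader membrane traffic Stx6 (-0.37), Vamp3 (-0.32) and Snap29 (-0.33) and the broadly expressed Stxbp3 (-0.43) fell, with edgeR adjusted p-values of 0.0162 to 0.0254.

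Of 21 other sensors and effectors, 3 passed (14.3%, near the 12.1% of all tested genes). All 3 rose: the calcium sensors Doc2a (log2 0.96, edgeR adjusted p = 0.0182) and Otof (log2 0.83, edgeR adjusted p = 0.0219), and beta-synuclein, Sncb (log2 0.52, edgeR adjusted p = 0.0155). Doc2a and Otof were scarce, at means of 5.44 ± 1.94 and 7.79 ± 1.86 CPM in controls. Of 15 active zone genes, 26.7% passed, beside 12.1% of all tested genes. Rims3 (log2 0.87, edgeR adjusted p = 0.0274) and the Munc13 relative Baiap3 (log2 0.72, edgeR adjusted p = 0.0427) rose. The scaffolds Erc1 (log2 -0.33, edgeR adjusted p = 0.0319) and Ppfia2 (log2 -0.66, edgeR adjusted p = 0.0222) fell.

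Of 16 vesicle recycling genes, 3 rose and 3 fell (37.5% passed, beside 12.1% of all tested genes). The neuronal endocytosis genes Dnm3 (log2 0.41) and Amph (log2 0.44) and the proton pump subunit Atp6v1b2 (log2 0.24) rose, with edgeR adjusted p-values of 0.0104, 0.0147 and 0.0431. The broadly expressed Dnm2 (log2 -0.34), Sh3gl1 (log2 -0.46) and Itsn2 (log2 -0.29) fell, with edgeR adjusted p-values of 0.0129, 0.0104 and 0.0344. Dnm1, the most abundant dynamin at 130.4 FPKM, did not pass (log2 0.12, SE 0.09, edgeR adjusted p = 0.439).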

How the data were processed

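Libraries were made from TRIzol-extracted total RNA, per the labels' protocols. Per the submitters' processing notes, cutadapt 1.9.1, HISAT2 2.2.1 and HTSeq 0.6.1 were used with the mouse build mm39. Which annotation, gene lengths and strand setting were used is not given in the sources used here, so overlapping or antisense genes could not be told apart. The authors deposited raw read counts per gene and FPKM for each library, per the file headers. Symbols came from GENCODE M21, which named 52073 of the 56691 genes.

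Genes with a mean of at least 0.5 FPKM over the 10 libraries were tested (17426 genes, at least 99.585% of each library's counts). Counts were compared with edgeR 4.0.16 (quasi-likelihood, TMM factors, 2-sided, Benjamini-Hochberg adjustment over all tested genes, threshold 0.05) in R 4.3.3, withdrawal minus control. Levels are CPM with TMM factors, means are given with the SD, and log2 fold changes with the SE. TMM factors were 0.852 in control 2 and 0.994 to 1.05 in the others. Shares of paralogues used FPKM, which is per length, and exact 2-sided permutation tests with adjustment over the 14 families.

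The gene lists, the set of 8 libraries and the tests were chosen with earlier results of these data known. Named with values were genes past the threshold in either set, up to 4 genes with the smallest p in each role, the most abundant paralogue of each family, and the extremes of control 2 and withdrawal 2. Markers of 9 tissue types were summed; besides those in the results, microglia, endothelium and pericytes, and choroid plexus and ependyma had 0 of 5 markers past the threshold in each list, and GABAergic neurons 0 of 6. The 5 choroid plexus and ependyma markers summed to 7280.2 to 10233 CPM in the 3 controls and 203 to 9639.9 CPM in the 5 withdrawal libraries. Ttr alone had 6430 to 9184 CPM in these controls and 38.8 to 8669 CPM in withdrawal. Over the 8 libraries Ttr, Kl and Clic6 had log2 fold changes of -1.15, -1.29 and -1.24, while Foxj1 and Ccdc153 had 0.09 and 0.45. Alternatives were DESeq2 1.42.0, RLE factors, limma 3.58.1 on log2(FPKM + 1) or log2(FPKM + 0.1), other gene filters, a replicate block and leaving out each library. The edgeR step was tested on simulated counts of 17426 genes: of changes of 1.5-fold it found 6.0% over 10 libraries and 59.7% over 8, of 2-fold changes 50.7% and 71.6%, and of 4-fold changes 84.8% and 97.0%, with 3 false calls in 97 and 13 in 165. In the simulation, changed genes were drawn only from genes above a minimum mean count. All simulated libraries shared the same mean profile, and genes varied independently. The real libraries differed in tissue markers, so these rates do not describe the calls made in them. Reads carried no molecular identifiers, so counting error is a lower bound. The labels do not say whether the mice were handled in separate batches. 1 further pathway gene past the threshold is counted but not reported here by name.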

Additional observations from a re-analysis of the deposited data

Results flagged for a closer look

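In 30 of 183 groups of 4 to 6 libraries, the highest or lowest value stood far from the others (Dixon's test at 95%). Chance passes this test in about 1 group in 20 when groups are independent. These groups shared libraries and genes, so the count of 30 cannot be judged against that rate. Of the 30, 9 concerned control 2 and 17 withdrawal 2.

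Control 2 was the high one of the 4 controls for Syt5 (112 CPM), Doc2b (349 CPM), Syt12 (51.8 CPM), Vamp2 (963 CPM), Syp (941 CPM), Rab3a (386 CPM) and Napb (565 CPM), and the low one for Snap23 (22.5 CPM) and Sv2c (31.4 CPM). These span sensors, SNAREs and vesicle proteins.

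Withdrawal 2 was the low one of the 6 withdrawal libraries for Syt2 (8.92 CPM), Syt4 (132 CPM), Syt13 (111 CPM), Syt17 (27.5 CPM), Cplx1 (129 CPM), Synpr (71.9 CPM), Sv2a (379.9 CPM) and Napb (251 CPM), and the high one for Syt12 (23.2 CPM), Snap23 (42.6 CPM) and Cplx2 (708 CPM). By share of the family, it was low for Syt2 (1.04%), Cplx1 (29.0%), Syn2 (27.5%), Unc13c (9.28%) and Napb (47.6%), and high for Sv2c (8.71%).

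The 4 others were Syt9 in withdrawal 1 (286 CPM, against 422 CPM or more in the other 4 of the 8-library set), Unc13a in withdrawal 6 (231 CPM, lowest both among 6 and among 5 withdrawal libraries) and the Vamp1 share in withdrawal 3 (8.54%, against 6.32% to 6.65%). No cause was tested for any of these.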

How the results depend on the processing

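Over 10 libraries the count of release genes past the threshold was 0 under 6 of the alternatives and the replicate block, 0 to 2 with 1 library left out (2 without withdrawal 2, Syt4 and Cplx2) and 14 without both control 2 and withdrawal 2. Over 8 libraries it was 14 to 20 under the other tools, scalings and filters (DESeq2 20, of which all 14 were shared), and 6 to 20 with 1 library left out. Of the 14 genes, 5 passed with any 1 library left out (Syt4, Syt12, Snap23, Cplx2 and Syngr3), and 4 of them under every alternative run, Cplx2 missing once. Deviations of same-numbered libraries from their group means had correlations of -0.15 to 0.31 over genes. Of the 4 numbers, 1 was its own best partner: number 2, that of the 2 libraries poor in habenula transcripts. With so few numbers, these correlations cannot decide whether the numbers pair the mice. With the replicate block 14 genes passed over 8 libraries (12 higher, 2 lower, 9 shared; edgeR adjusted p of 0.129 for Unc13c, 0.0773 for Sv2a, 0.0718 for Vamp2, 0.0576 for Syt13 and 0.0567 for Cplx2) and 0 over 10, and of the other pathway genes 9 in place of 19 over 8. Shares past the threshold were 0 to 6 over 10 libraries with 1 left out (6 without withdrawal 2). Over 8 libraries they were 7 by CPM, 0 by the difference of medians and 0 to 0 with 1 left out, where fewer splits raise the smallest possible p. Directions that changed were those of Vamp2 over 10 libraries (log2 0.01 against -0.0072 with DESeq2, -0.0072 with RLE factors, -0.0022 without a gene filter and -0.0022 with the replicate block, and -0.0857 to 0.214 with 1 library left out), Syn2 over 10 libraries (-0.0048 to 0.40), Doc2b over 8 (-0.284 to 0.0113) and Nsf over 8 (-0.0801 to 0.178). Over all tested genes, 29 passed over 10 libraries, against 407 with DESeq2, 15 and 7 with limma, 0 with the replicate block and 4 to 814 with 1 library left out (814 without withdrawal 2). Over 8 libraries 2116 passed (12.1%), against 3007 with DESeq2 (17.3%), 1093 with the replicate block and 907 to 3007 with 1 left out (907 without control 3). The cause was not tested. The depth of 15023448 to 22026333 counts and 3 to 6 libraries a group limit what small changes can be seen.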
